A study of Mus musculus with 7 samples.

Results

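The 34 genes described here encode the integrin chains that bind extracellular matrix, the laminin chains, the nidogens, perlecan and agrin. They were chosen by gene symbol, as integrin chains other than those restricted to leukocytes together with the core glycoproteins and heparan sulfate proteoglycans of basement membrane. All 34 symbols were found in the platform annotation, each with 1 probe set, among 23185 named genes in all. Levels were measured on Affymetrix whole-transcript arrays in lesional skin of male C57BL/6 mice aged 9 weeks that had been injected with bleomycin for 3 weeks, a common way to induce dermal fibrosis in mice. The 4 knockout samples carried the genotype ox40l-/- and the 3 wild type samples the genotype ox40l+/+, with 1 array for each sample, numbered here by the replicate number in its title. OX40L is a costimulatory ligand of the tumour necrosis factor family, encoded by Tnfsf4. The labels leave unsaid how the allele was made and whether the samples are separate animals. Some pairs of samples share a number in their sample codes, both within and across genotypes. What that number marks is not stated, and no model blocked on it. Every sample had bleomycin, so the comparison is between genotypes in treated skin and not between treated and untreated skin.

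Integrins are receptors made of an alpha and a beta chain that span the cell membrane, bind matrix outside the cell and connect through talin and kindlin to actin inside it. Laminins are cross-shaped trimers of an alpha, a beta and a gamma chain that polymerise into the sheet of the basement membrane, and nidogens and perlecan tie that sheet to the type IV collagen network. In skin, alpha-6 beta-4 integrin and the alpha-3 and beta-3 laminin chains hold basal keratinocytes to the dermis at hemidesmosomes, while fibroblasts grip collagen and fibronectin through beta-1 and alpha-v integrins, the latter of which can also release active TGF-beta from its latent complex.

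Wild type arrays 1 and 3 stood apart from the rest: pairs of arrays that included either of them had Pearson's r of 0.761 to 0.914 over all probe sets, against 0.956 to 0.968 among the other 5 arrays. The SD of the log2 values was 1.72 on wild type array 1 and 1.22 on wild type array 3, with 1.38 to 1.48 elsewhere. The tissue label was borne out by keratins, since Krt14 of basal keratinocytes lay between 9.54 and 10.94 and Krt10 of the suprabasal layers between 8.14 and 10.53, against a median of 3.596 over all values. Skeletal muscle markers were also bright, with a mean log2 level over 8 genes of 7.40 to 9.52. In bulk skin, fewer cells of a type and less RNA per cell cannot be told apart.

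None of the 34 genes had a difference between the genotypes that passed. In limma, 0 of 34 passed at a Benjamini-Hochberg adjusted p under 0.05, where 0.00431% of all genes did, and 0 of 34 had an unadjusted p under 0.05, where 1.88% of all genes did (1.03% higher in knockout and 0.854% lower). The smallest unadjusted p was 0.121, for Itga1, and the adjusted p was 0.9995 for every one of the 34. In 0 of the 34 did the genotypes fail to overlap, against 1.91% of all genes (1.1% higher in knockout and 0.815% lower). The log2 difference, taken as knockout minus wild type, was negative for 23 genes and positive for 11, with a median of -0.084 beside 0.010 over all genes. That median was -0.188 without wild type array 3 (0.078 over all genes), -0.040 without wild type array 1 (-0.019), -0.037 without wild type array 2 (0.004) and -0.017 after quantile normalization (-0.009). Of all genes, 48.3% had a negative difference.

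These data also bound how large a difference in the measured values could have been, given the spread among these arrays. The 95% confidence interval lay within a 2-fold difference in either direction for 31 of the 34 genes, or 91.2%, against 73.7% of all genes. The exceptions were Itga1, Itga6 and Lamb1. For 14 of the 34, or 41.2%, the interval lay within a 1.5-fold difference, against 33% of all genes. Apart from Lama2, with a mean level of 4.953, these 14 had mean levels of at most 4.307. Brighter genes such as Itgb1 and Lamc1 were not among them. Itga2, Itga8, Lama1 and Lama5, which were, had the same value on at least 4 arrays. Standard errors ran from 0.123 to 0.457. Whether these bounds hold for transcript levels was not tested. The dimmest of the 34 were Itga10, Itga5 and Lama1, with mean levels of 2.186, 2.924 and 2.951. The median over all values was 3.596. Lama5 had exactly the same value on every knockout array. Without wild type array 3 the counts were 3 genes with an unadjusted p under 0.05 (Lama3, Lamb1 and Lamc1, all lower in knockout) and 6 whose genotypes did not overlap, beside 12% and 21.4% of all genes in the same run, and 0 passed after adjustment. Leaving out any other single array gave 0 or 1 gene at the unadjusted threshold. That gene was Hspg2 without wild type array 2, where 3.48% of all genes had such a p, and Itga1 without knockout array 4, where 1.32% did, both lower in knockout.

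**Figure D1:**
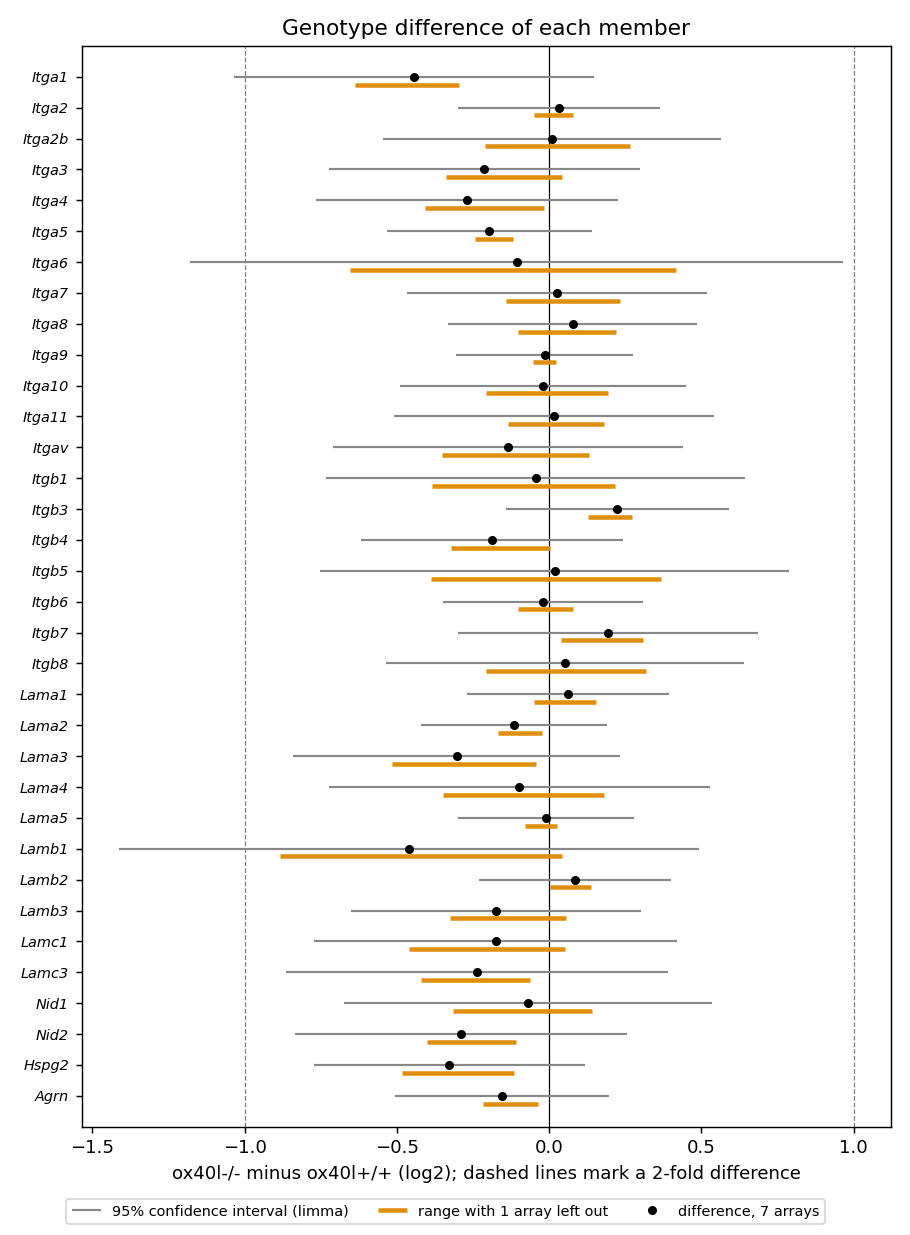
Difference between genotypes, knockout minus wild type, for each of the 34 genes on the log2 scale. Black points are the differences over 7 arrays, grey bars the limma 95% confidence intervals and orange bars the range when 1 array was left out. Every interval includes 0, and only those of Itga1, Itga6 and Lamb1 reach past the dashed lines at a 2-fold difference.

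Among the alpha chains that bind collagen, Itga1 had the smallest p of all 34 genes. Itga1 encodes the alpha-1 chain, which pairs with beta-1 to bind collagens, type IV among them. Its log2 values were 3.09, 3.40, 3.53 and 4.11 on knockout arrays 1 to 4 and 4.19, 3.77 and 3.98 on wild type arrays 1 to 3. Knockout arrays 1 to 3 lay below all wild type arrays, and knockout array 4 lay above wild type arrays 2 and 3. The difference was -0.44 (SE 0.25, 95% confidence interval -1.04 to 0.15), and it ran from -0.637 to -0.295 with 1 array left out, negative in each of the 7 runs. Itga11, the alpha-11 chain of a receptor for fibrillar collagen on fibroblasts, was at 3.38, 3.56, 4.09 and 3.56 in knockout and at 3.38, 3.56 and 3.96 in wild type. The genotypes covered nearly the same span, with a difference of 0.02 (95% confidence interval -0.51 to 0.54). Itga2, the other widely expressed collagen receptor chain, differed by 0.03, and Itga10, known from cartilage, by -0.02.

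The alpha chains that bind laminin were spread more widely within wild type than between the genotypes. Itga6, whose product pairs with beta-4 in hemidesmosomes and with beta-1 elsewhere, had log2 values of 4.39, 4.32, 4.77 and 4.70 in knockout. In wild type it was at 5.70 on array 1, 4.70 on array 2 and 3.55 on array 3. The highest and the lowest of the 7 values were thus both wild type, a range of 2.14 that no other of the 34 genes reached, and the 4 knockout arrays lay between them. The difference of -0.11 (95% confidence interval -1.18 to 0.97) became 0.417 without wild type array 1 and -0.655 without wild type array 3. Itga3, the alpha-3 chain that binds laminins of the epidermal basement membrane, was at 3.15, 3.10, 3.15 and 3.37 in knockout and at 3.92, 3.15 and 3.15 in wild type. Wild type array 1 alone lay above the knockout arrays, and without it the difference of -0.21 became 0.042. Itga7, the laminin receptor chain of muscle, differed by 0.02.

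Alpha chains that recognise the RGD motif of fibronectin and related ligands gave no difference that passed. Itgav encodes alpha-v, the partner of beta-1, beta-3, beta-5, beta-6 and beta-8. Its values were 5.65, 5.52, 5.58 and 5.21 in knockout and 6.16, 5.53 and 5.19 in wild type. Wild type array 1 was the highest array and wild type array 3 the lowest, and the sign of the difference (-0.14) turned without wild type array 1 (0.130). Itga5, the fibronectin receptor chain, was at 2.61, 2.98, 2.90 and 2.87 in knockout and at 2.98, 3.15 and 2.98 in wild type. The knockout arrays reached up to the lowest wild type values and not above them, with a difference of -0.20 (95% confidence interval -0.53 to 0.14). Itga8, of smooth muscle and other contractile mesenchymal cells, differed by 0.08, and Itga2b, the fibrinogen receptor chain of platelets, by 0.01. On wild type array 1 Itga2b had its lowest value, 2.83, as that array was the lowest in 39.1% of all genes. The mean level of 5 platelet and megakaryocyte markers was also at its lowest there, 4.01 against 4.43 to 4.75 on the other arrays. That mean was highest on wild type array 2, where Itga2b was at 3.19, and Itga2b was highest on wild type array 3, at 3.78. The part of platelets in the values of Itga2b was not tested.

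Itga4 stood out on a single array. Its product pairs with beta-1 or beta-7 to bind VCAM-1, fibronectin or MAdCAM-1 and is abundant on leukocytes. Its log2 values were 3.15, 3.15, 3.00 and 3.15 in knockout, and 3.15, 3.89 and 3.11 on wild type arrays 1 to 3. Wild type array 2 lay above the other 6 arrays, which lay between 3.00 and 3.15, and the difference of -0.27 was -0.018 without it. Itgb7, a partner of alpha-4 on lymphocytes, was at 4.57, 3.93, 4.10 and 4.32 in knockout and at 3.72, 4.12 and 4.26 in wild type. These overlapped, with a difference of 0.19. The mean level of 5 leukocyte markers was 5.09 on wild type array 2, 5.20 on array 1 and 4.27 on array 3, and 4.65 to 4.94 in knockout, and its part in the values of these genes was not tested. Itga9, related to Itga4, differed by -0.02.

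In Itgb1, Itgb5, Itgb6 and Itgb8, 4 of the 7 beta chains, the ends of the range were both wild type arrays. Itgb1 encodes beta-1, the common partner of most matrix-binding alpha chains. It was at 5.85, 6.12, 6.15 and 6.39 in knockout and at 6.69, 6.33 and 5.49 in wild type. Itgb5, a vitronectin receptor chain, was at 6.31 and 4.80 on wild type arrays 1 and 3, with 5.49 to 5.73 on the other 5 arrays. Itgb8, which with alpha-v can activate latent TGF-beta, was at 5.04 and 3.99 on those wild type arrays, with 4.43 to 4.70 elsewhere. In each of these 3 genes wild type array 1 was the highest array and wild type array 3 the lowest. Their differences were -0.04 for Itgb1, 0.02 for Itgb5 and 0.05 for Itgb8, and without wild type array 3 they were -0.385, -0.389 and -0.208.

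The windows of 250 bases before the starts of these 3 beta chain genes are printed below. They were drawn from the 7 of the 34 genes with this highest and lowest array, a pattern that held for 11.3% of all genes. Whether the promoters have a part in that pattern was not tested. Sequences are RefSeq's on GRCm38.p6, which had windows for 24 of the 34 genes and for 5 of the 7 genes with this array pattern. Only windows that end at the start of the gene's RefSeq record were kept, which left these 3. They are in the direction of transcription, at chr8:128685404-128685653 on the plus strand for Itgb1, chr16:33829415-33829664 on the plus strand for Itgb5 and chr12:119238277-119238526 on the minus strand for Itgb8. Capitals mark matches on either strand to GGGCGG (the GC box, bound by Sp1-family factors), to CCAAT (the CCAAT box), to TATAAA (the TATA box) or to TGANTCA (the AP-1 site), none of which overlap in these windows.
Itgb1: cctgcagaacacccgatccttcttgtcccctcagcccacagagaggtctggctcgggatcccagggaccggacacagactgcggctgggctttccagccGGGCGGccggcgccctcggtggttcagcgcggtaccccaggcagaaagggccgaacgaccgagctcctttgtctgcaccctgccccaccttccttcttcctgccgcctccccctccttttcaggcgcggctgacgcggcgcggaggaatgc
Itgb5: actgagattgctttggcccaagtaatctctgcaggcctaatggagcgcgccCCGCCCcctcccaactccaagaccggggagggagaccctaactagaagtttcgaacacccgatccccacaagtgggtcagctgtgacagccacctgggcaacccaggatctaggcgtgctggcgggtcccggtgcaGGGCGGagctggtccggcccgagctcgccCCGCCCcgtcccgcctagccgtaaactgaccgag
Itgb8: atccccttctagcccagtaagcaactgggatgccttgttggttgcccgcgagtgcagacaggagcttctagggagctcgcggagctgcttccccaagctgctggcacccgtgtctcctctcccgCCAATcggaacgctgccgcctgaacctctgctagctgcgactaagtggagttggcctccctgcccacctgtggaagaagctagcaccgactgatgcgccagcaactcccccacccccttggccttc
The Itgb1 window held 1 GC box, the Itgb5 window 3 and the Itgb8 window 0, while the CCAAT letters were in the Itgb8 window alone. A GC box was in 32.7% of all promoter windows of this length and CCAAT in 33.8%. None of the 3 windows held TATAAA, found in 12.4% of windows, or the AP-1 letters, found in 6.75%. The GC content was 68.0%, 65.2% and 62.4% in Itgb1, Itgb5 and Itgb8, above the median of 52.4% over all windows.

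The other beta chains varied less. Itgb4, the hemidesmosomal partner of alpha-6, was at 4.01, 3.88, 4.01 and 4.14 in knockout and at 4.57, 3.92 and 4.09 in wild type. Wild type array 1 was again the highest, and the difference of -0.19 became 0.002 without it. Itgb3, which pairs with alpha-v in angiogenic endothelium and with the platelet alpha chain, was at 4.09, 4.46, 4.24 and 4.09 in knockout and at 3.80, 4.09 and 4.09 in wild type. Its knockout values lay at or above all wild type values, a difference of 0.22 (SE 0.16, 95% confidence interval -0.14 to 0.59) that stayed between 0.128 and 0.272 with 1 array left out. Itgb6, an epithelial chain induced in wounds that with alpha-v activates TGF-beta, was between 3.29 and 3.65 on all arrays and differed by -0.02 (95% confidence interval -0.35 to 0.31).

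**Figure D2:**
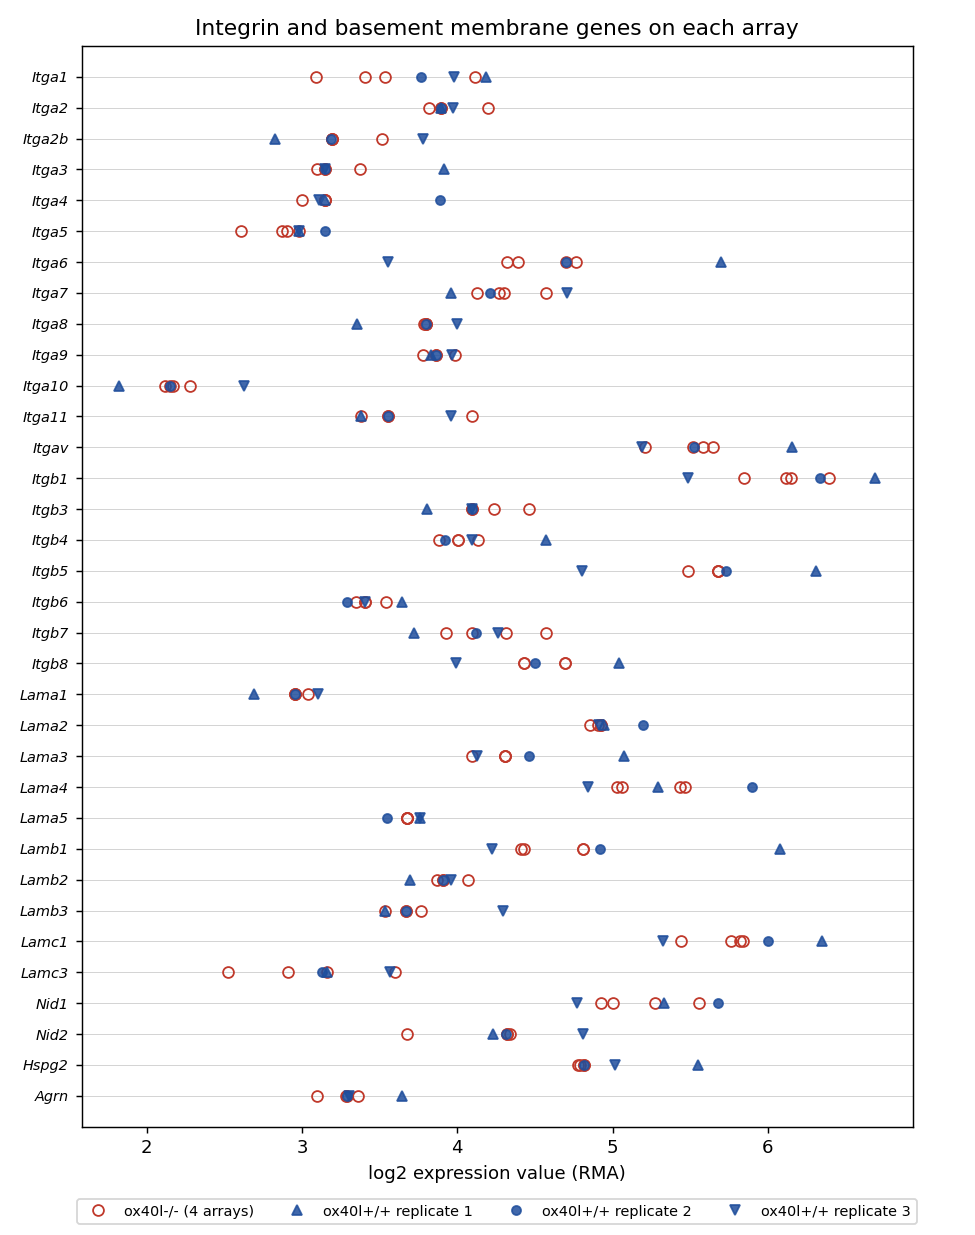
Log2 expression values of the 34 genes on each of the 7 arrays. Open red circles are the 4 knockout arrays, and blue symbols are the wild type arrays, with upward triangles for array 1, filled circles for array 2 and downward triangles for array 3. In Itga6, Itgb1, Itgb5 and Lamb1 the triangles lie at the ends of the range with the other arrays between them.

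Laminin alpha chains gave small differences. Lama3 encodes the alpha-3 chain of the anchoring laminin under the epidermis. It was at 4.30, 4.30, 4.09 and 4.30 in knockout and at 5.08, 4.46 and 4.13 in wild type. Wild type arrays 1 and 2 lay above all knockout arrays and array 3 within their span. The difference of -0.30 (95% confidence interval -0.84 to 0.23) became -0.043 without wild type array 1 and -0.516 without wild type array 3. Lama5, the alpha-5 chain found in epidermal, follicular and vascular basement membrane, had the value 3.68 on all 4 knockout arrays and was at 3.76, 3.55 and 3.76 in wild type, with a difference of -0.01 (95% confidence interval -0.30 to 0.28). Lama4, of vascular basement membrane, was highest on wild type array 2 (5.90) and lowest on wild type array 3 (4.84), with 5.03 to 5.47 in knockout. Lama2, the chain of muscle and nerve laminin, was also highest on wild type array 2, at 5.20 against 4.85 to 4.94 on the other 6 arrays. Lama1, mostly an embryonic chain, differed by 0.06.

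Lamb1 had the largest difference in size of the 34 genes, and its sign rested on 1 array. Lamb1 encodes the beta-1 chain of the most widespread laminins. Its log2 values were 4.43, 4.81, 4.41 and 4.81 in knockout and 6.08, 4.92 and 4.23 in wild type. Wild type array 1 was far above the other arrays and wild type array 3 below them all. The difference was -0.46 (SE 0.41, 95% confidence interval -1.41 to 0.49), 0.041 without wild type array 1 and -0.885 without wild type array 3. Lamc1, the gamma-1 chain that joins Lamb1 in the same trimers, had the same order of wild type arrays, at 6.35, 6.00 and 5.32, and was at 5.44 to 5.84 in knockout. Its difference of -0.18 became 0.052 without wild type array 1 and -0.460 without wild type array 3. Lamb3, the beta-3 chain that joins Lama3, went another way. It was at 3.53, 3.76, 3.67 and 3.67 in knockout and at 3.54, 3.67 and 4.30 in wild type, so that wild type array 3 was the highest array where Lama3 was highest on array 1. Lamb2, of vascular and neuromuscular laminins, differed by 0.08 and Lamc3 by -0.24, the latter with a knockout range of 2.52 to 3.601 that took in all wild type values.

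Nidogens and proteoglycans had negative differences in 4 of 4 genes, none of which passed. Hspg2 encodes perlecan, the large heparan sulfate proteoglycan of basement membrane. It was at 4.79, 4.81, 4.81 and 4.77 in knockout and at 5.55, 4.81 and 5.02 in wild type. The knockout arrays differed by less than 0.05 and lay at or below the wild type values, a difference of -0.33 (SE 0.19, 95% confidence interval -0.77 to 0.12). With each array centred on its median the genotypes of Hspg2 did not overlap, as in 4.12% of all genes under that setting, while the difference kept an adjusted p of 0.9994 in limma, and without wild type array 1 it was -0.116. Nid1, nidogen-1, was at 5.005, 4.93, 5.56 and 5.28 in knockout and at 5.33, 5.68 and 4.77 in wild type, with the knockout arrays between the ends of the wild type. Nid2, nidogen-2, was at 4.34, 3.67, 4.32 and 4.32 in knockout and at 4.23, 4.31 and 4.81 in wild type. Its difference of -0.29 (95% confidence interval -0.84 to 0.26) had knockout array 2 as the lowest array and wild type array 3 as the highest. Agrn, agrin, which is best known for clustering acetylcholine receptors at the neuromuscular junction, was at 3.36, 3.29, 3.28 and 3.10 in knockout and at 3.65, 3.29 and 3.30 in wild type, and differed by -0.15.

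The spread of the 34 genes lay mostly within wild type. The SD was larger among the 3 wild type arrays than among the 4 knockout arrays in 25 of 34 genes, 73.5%, and in 76.9% of all genes. The median SD was 0.359 in wild type and 0.157 in knockout, beside 0.387 and 0.188 over all genes. In 7 genes wild type array 1 was the highest of the 7 arrays and wild type array 3 the lowest: Itga6, Itgav, Itgb1, Itgb5, Itgb8, Lamb1 and Lamc1. In another 5 the order was turned, with wild type array 3 highest and wild type array 1 lowest: Itga2b, Itga7, Itga8, Itga10 and Lama1. The first pattern held for 11.3% of all genes and the second for 19.6%.

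These patterns followed the level of the gene. All 7 genes of the first pattern were among the 12 of the 34 that lay in the upper 3 of 10 equal bins of all genes by mean level, and all 5 of the second were among the 22 in the lower 7 bins. Over all genes the same held: the first pattern was in 28.3% of genes in the upper 3 bins and 3.99% of the rest, and the second in 8.74% and 24.2%. In the highest bin, the median deviation of all genes from their own means was 0.469 on wild type array 1 and -0.804 on wild type array 3, and that bin held Itgav, Itgb1, Itgb5 and Lamc1. Itgb1 deviated by 0.546 and -0.659 on those arrays. Itga6 and Lamb1 lay farther out than the medians of their bins, with the spread within the bins not compared. Itga6 was at 1.107 and -1.037 from its mean, where the medians of its bin were 0.121 and -0.049. Lamb1 was at 1.267 and -0.585, where they were 0.294 and -0.230. Itgb8, in the bin of Itga6, was at 0.500 and -0.550, and Lama3 of that bin at 0.695 and -0.252.

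**Figure D3:**
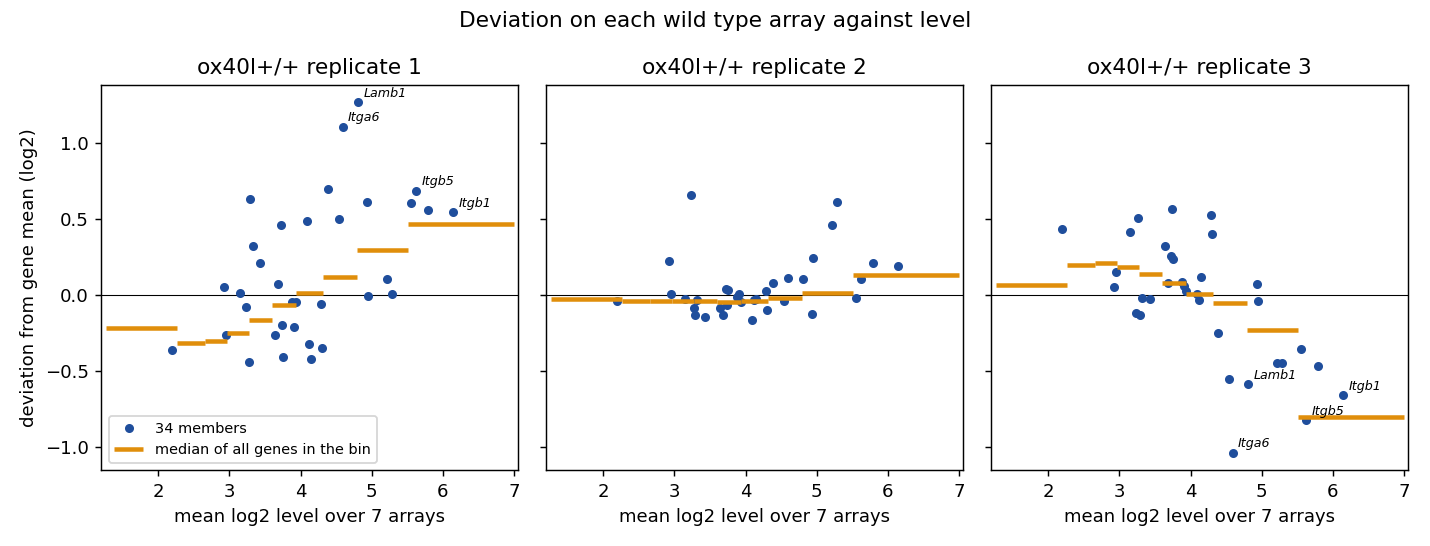
Deviation of each of the 34 genes from its mean over the 7 arrays (blue points, log2) on the 3 wild type arrays, against that mean. Orange bars are the median deviations of all genes in each of 10 equal bins of mean level (the last bar is drawn to 7 and its bin extends to higher levels); they rise with level to 0.469 on array 1 and fall to -0.804 on array 3.

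Markers of basal keratinocytes stood apart on wild type arrays 1 and 3, and those of hair follicle on wild type array 1. The mean level of 5 basal keratinocyte markers was 8.495 on wild type array 1, 6.86 on array 2 and 6.07 on array 3, and 6.67 to 6.96 in knockout. The mean of 10 hair follicle markers was 8.08 on wild type array 1 and 3.50 to 4.79 on the other 6 arrays. The 5 genes of epidermal anchoring among the 34 (Itga3, Itga6, Itgb4, Lama3 and Lamb3) had a mean deviation of 0.544 on wild type array 1 and of -0.171 to 0.021 on the other arrays. On wild type array 1, Itga3, Itga6, Itgb4 and Lama3 deviated by 0.485 to 1.107. Lamb3 went the other way, at -0.199 there and 0.563 on wild type array 3. The differences between genotypes were negative in 5 of the 5 genes, with a median of -0.187, and 0 of 5 passed. Without wild type array 1, 2 of 5 were negative and the median was 0.002. Fibroblast markers (6 genes) had a mean level of 5.50 on wild type array 3 and of 6.42 to 7.23 elsewhere, and skeletal muscle markers one of 7.40 there and of 8.78 to 9.52 elsewhere. Array 3 was also the lowest array for suprabasal keratinocyte, endothelium, smooth muscle and pericyte, adipocyte, Schwann cell and leukocyte markers. Suprabasal markers were at 6.89 there, at 8.10 on wild type array 1 and at 7.45 to 7.73 elsewhere. Basal keratinocyte markers had mean deviations of 1.532 on wild type array 1 and -0.889 on array 3. In the highest bin by level, the medians of all genes were 0.469 and -0.804. The part of these cell types in the values of the 34 genes was not tested.

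Wild type array 2, the wild type array most like the knockout arrays, gave another view. Its value lay above all 4 knockout arrays in 9 of the 34 genes (26.5%) and below all 4 in 3 (8.82%), where the shares of all genes were 17.1% and 20.3%. The 9 genes were Itga4, Itga5, Itgb5, Lama2, Lama3, Lama4, Lamb1, Lamc1 and Nid1, and the 3 were Itga2b, Itgb6 and Lama5. With this array as the only wild type sample, assumed to vary like the knockout arrays, the differences with an unadjusted p under 0.05 were those of Itga4 (-0.775), Lama2 (-0.295) and Lama4 (-0.651). That was 3 of 34 genes, 8.73% of all genes had such a p in the same run, and 0 of the 34 passed after adjustment in limma. The choice of this array was made after seeing the data.

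Other genes of the same adhesion system also gave no difference that passed. Of 28 further basement membrane genes, such as type IV, VII and XVII collagens, 0 passed in either direction, 9 differences were positive and 19 negative, and the median was -0.095. The smallest p among them were those of Hmcn1, hemicentin-1 (-0.25, SE 0.16), and Smoc2, a matricellular protein (-0.39, SE 0.27). Of 26 measured genes of integrin adhesions, among them talins, kindlins, the kinase Src and the integrin inhibitor Sharpin, 0 passed, 19 were negative and the median was -0.135. Kank1, which links talin to the cortical microtubule complex, differed by -0.76 (SE 0.39) and Lims1, the PINCH adaptor of integrin-linked kinase, by -0.38 (SE 0.21). Kank1 was at 5.30 on wild type array 1 and at 3.22 to 4.13 on the other 6 arrays. The 26 had a mean deviation of 0.541 on wild type array 1 and -0.340 on wild type array 3, with -0.138 to 0.060 on the other 5 arrays.

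Among 20 measured ligands of integrins outside the 34, 0 passed, 13 differences were negative and the median was -0.043. Thbs1, thrombospondin-1, a ligand that can activate TGF-beta, was the 1 gene of the 20 whose genotypes did not overlap, as in 1.91% of all genes. It was at 3.32, 3.38, 3.19 and 3.27 in knockout and at 4.88, 3.39 and 3.75 in wild type. Its wild type array 2 lay just above the highest knockout array, and limma gave an adjusted p of 0.9995 for the difference of -0.72 (SE 0.33). The next smallest p was that of Tgfb1, whose latent complex binds alpha-v integrins (-0.27, SE 0.16). The 6 leukocyte integrin chains had 4 positive and 2 negative differences and a median of 0.055. Itgam, the alpha-M chain of myeloid cells, was the 1 of the 6 with an unadjusted p under 0.05 in limma, where 1.88% of all genes had such a p. It was at 4.37, 4.80, 4.44 and 4.92 in knockout and 5.25, 5.50 and 4.80 in wild type. The difference was -0.55 (SE 0.22, limma adjusted p = 0.9995), and the genotypes overlapped. Itgae, the chain of epidermal T cells that binds E-cadherin, differed by 0.27 (SE 0.18).

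**Figure D4:**
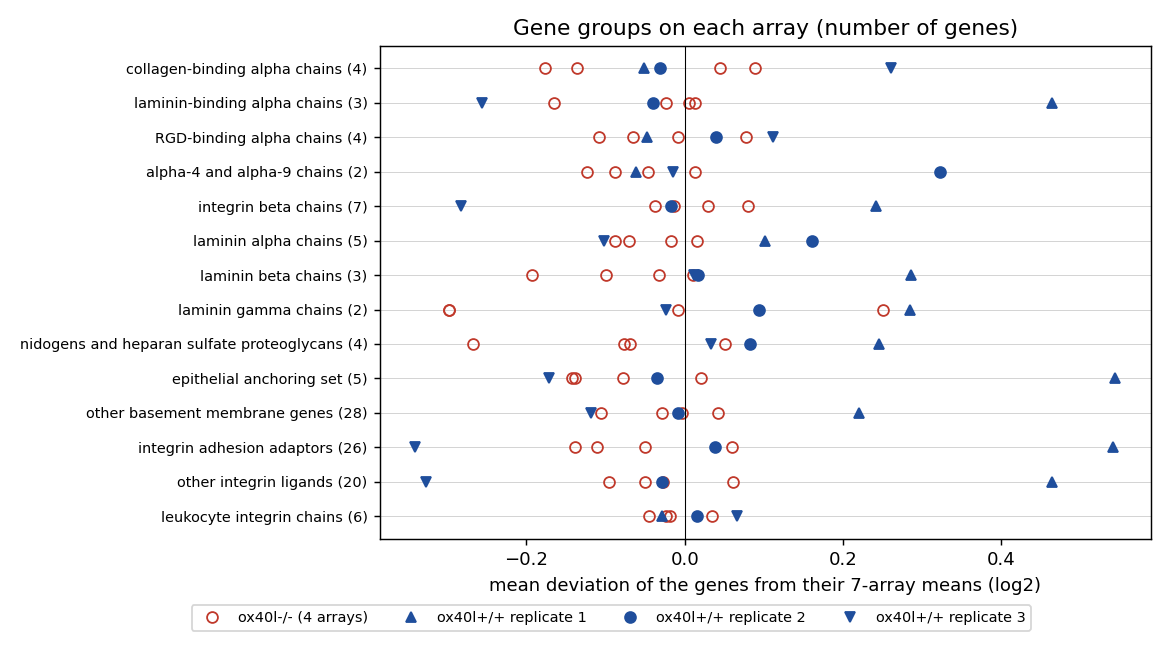
Mean deviation of the genes of each group from their own 7-array means (log2) on each array, with the number of genes in brackets. Red circles are knockout arrays and blue symbols wild type arrays. Wild type array 1 lies far to the right in the epidermal anchoring set (0.544) and the integrin adhesion genes (0.541, plotted as integrin adhesion adaptors). It does so too in the laminin-binding alpha chains and the other integrin ligands (0.464 each). The knockout arrays range from -0.298 to 0.251 over the groups shown.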

How the data were processed

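The deposited table holds 1 log2 value per probe set and array. RMA, which corrects background, normalizes by quantiles and summarizes probes, is the method the submitters' processing notes name. Its version and the build behind the probe sets are not given in the sources used here. Median polish, the usual last step of RMA, can give several arrays exactly the same value: this was so on at least 4 of the 7 arrays for 7 of the 34 genes and 10.0% of all genes. Array medians still ran from 3.45 to 3.74, and values were used as deposited with no further normalization or filter.

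Of 25206 probe sets, 23185 had 1 symbol in the platform annotation, 0 had several and 2021 were unnamed here, and all 23185 matched RefSeq by Entrez number. Genotypes, from the sample titles, were compared over all 23185 with limma 3.58.1 (lmFit and eBayes, 7 arrays, two-sided) in R 4.3.3, with Benjamini-Hochberg adjustment over all of them. P-values rest on the variation among these 7 samples, part or all of which may be technical, and so few arrays limit the precision. The procedure was tested on simulated data in which both genotypes had the same spread and the arrays varied independently. In the real data the SD was larger in wild type in 76.9% of all genes, so that test does not cover the spread seen here. Tables and figures were made with Python 3.11.15 and matplotlib 3.10.9.

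The members, the gene lists and the tests were chosen with earlier results of these data known. Values on every array were given for the 12 genes with the smallest p and for 10 representatives of the roles (19 genes in all), and for further genes as their array patterns required, which were chosen after their values were seen. For each further list the 2 genes with the smallest p were named. Alternatives were quantile normalization, median centring, an intensity trend with robust moderation, filters on the dimmest 30% or 50%, all probe sets, array weights, blocks for the replicate number or the suffix of the sample codes, a stricter threshold and leaving out each array.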

Additional observations from a re-analysis of the deposited data

Results flagged for a closer look

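In 7 of the 34 genes 1 of the 4 knockout arrays lay farther from the other 3 than Dixon's 95% critical value for the gap as a share of the range allows. Chance alone flags about 1 group in 20 where values do not repeat, and values repeated exactly over arrays make the gap equal the range. The same value was on 2 or more of the 7 arrays in 73.5% of the 34 genes and 54.3% of all genes. The share flagged over all genes was not computed, so the count cannot be read as an excess. Itga2b was at 3.512 on knockout replicate 2, with 3.191 to 3.195 on the others, and Nid2 at 3.673 on the same array, with 4.318 to 4.339 on the others. On knockout replicate 3, Itga4 was at 2.997 (others 3.150), Itga8 at 3.784 (others 3.795), Lama1 at 3.038 (others 2.957) and Lama3 at 4.092 (others 4.304). Itgb5 was at 5.488 on knockout replicate 1 (others 5.680). In these 5 genes the other 3 arrays had the same value to within 0.001.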

How the results depend on the processing

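With 7 arrays, 2 of them far from the rest, only large differences could pass. Over all genes, 1 passed as reported. That count was 0 under quantile normalization, median centring, the trend with robust moderation, all probe sets, the code suffix block, each run without 1 array (0 to 0) and without both wild type replicates 1 and 3, the last chosen after seeing the data. With the replicate block it was also 0. Deviations from the genotype means correlated little between samples of the same replicate number (-0.086, -0.145 and 0.034). With so few arrays, 2 of them far from the rest, these correlations cannot show whether the numbers pair the samples. Array weights gave 4032 genes, with 5 of the 34 called and 10 at the unadjusted threshold, where 31.8% of all genes were. They put a weight of 75.4 on wild type replicate 2 against 0.106 and 0.109 on the other wild type arrays, and their estimation stopped before convergence. The 5 were Itga4 (-0.776), Itga5 (-0.301), Lama2 (-0.296), Lama4 (-0.658) and Nid1 (-0.492).

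The number of the 34 at the unadjusted threshold was 0 to 3 with 1 array left out (1.07% to 12% of all genes) and 3 without both (8.73%). The number whose genotypes did not overlap was 1 with centring (4.12% of all genes), 0 to 6 with 1 array left out (3.09% to 21.4%) and 12 without both (37.5% of all genes). The median difference was -0.017 with quantile normalization, -0.011 with weights, -0.117 with the code suffix block, -0.013 without both, and -0.188 to -0.037 with 1 array left out.

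With 1 array left out, the sign was kept in all 7 runs for 12 genes and turned in at least 1 run for 22. The lowest and highest differences of the 22 were -0.050 to 0.077 for Itga2, -0.210 to 0.266 for Itga2b, -0.340 to 0.042 for Itga3, -0.655 to 0.417 for Itga6, -0.141 to 0.233 for Itga7, -0.104 to 0.219 for Itga8, -0.052 to 0.024 for Itga9, -0.207 to 0.194 for Itga10, -0.134 to 0.179 for Itga11, -0.352 to 0.130 for Itgav, -0.385 to 0.217 for Itgb1, -0.324 to 0.002 for Itgb4, -0.389 to 0.366 for Itgb5, -0.101 to 0.078 for Itgb6, -0.208 to 0.317 for Itgb8, -0.051 to 0.153 for Lama1, -0.349 to 0.179 for Lama4, -0.081 to 0.025 for Lama5, -0.885 to 0.041 for Lamb1, -0.325 to 0.056 for Lamb3, -0.460 to 0.052 for Lamc1 and -0.315 to 0.140 for Nid1.

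Signs also turned with weights in Itga3 (0.031), Itga8 (-0.003), Itga9 (0.004), Itga10 (0.028), Itgb4 (0.077), Itgb5 (-0.095), Itgb6 (0.144) and Lama5 (0.129). Without both arrays they turned in Itga3 (0.042), Itga8 (-0.003), Itga9 (0.009), Itga10 (0.032), Itgb4 (0.087), Itgb5 (-0.098), Itgb6 (0.138) and Lama5 (0.130). With quantile normalization they turned in Itga2b (-0.064), Itga6 (0.121), Itga7 (-0.010), Itga11 (-0.023), Itgav (0.007), Itgb1 (0.083), Lama4 (0.026), Lama5 (0.008) and Nid1 (0.065). With centring Itga2b turned (-0.005), with the code suffix block Itga11 (-0.013), Itgb5 (-0.004) and Lama5 (0.003), and with the replicate block Itgb6 (0.004). The cause was not tested.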
